A study of Gallus gallus with 18 samples.

Results

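The genes described here are the chicken cytochrome P450 genes other than those of cholesterol and bile acid synthesis. They were chosen by name, as every gene of the deposited table whose symbol starts with CYP and a digit, leaving out CYP51A1, CYP7A1, CYP7B1, CYP8B1 and CYP27A1. That gave 42 of 23741 genes. Grouped by what the enzymes are known for, they were 4 genes of family CYP1, 21 of families CYP2 and CYP3, 4 of family CYP4, 4 of steroid hormone synthesis, 6 of vitamin D and retinoid turnover, and 3 others.

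Cytochrome P450 enzymes are haem proteins that use molecular oxygen to oxidise small lipophilic molecules. Most sit in the endoplasmic reticulum and take electrons from the reductase POR, with cytochrome b5 as a second donor for some, whereas those of mitochondria take them through the ferredoxin FDX1. The liver is their main site: families CYP1 to CYP3 clear drugs, pigments, toxins and steroids there, and CYP4 enzymes oxidise fatty acids. Several are induced through ligand-activated receptors, among them the aryl hydrocarbon receptor AHR for CYP1A and the xenobiotic receptor NR1I3 for the phenobarbital-inducible genes of the chicken.

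Arbor Acres broiler breeder roosters had been fed a corn and soybean diet with 0.25 mg of folic acid per kg (control, FCON) or 5 mg per kg (excess, FE). Poly(A) RNA was sequenced from rooster liver and sperm at 35 weeks of age (sperm FE replicate 3 is labelled 36 weeks) and from the liver of 1-day-old offspring of each diet group. All hens received feed containing folic acid, so the offspring groups are named for the father's diet, and each offspring library is RNA of 4 chicks pooled. The 6 groups hold 3 libraries each, 18 in all, and separate birds or pools are what the labels call replicates.

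Total counts ran from 36.1 to 43.1 M (mega) in rooster FCON and from 17 to 22.8 M in rooster FE. They ran from 21.3 to 41 M in offspring liver and from 23.8 to 33.7 M in sperm. The rooster liver groups differed in more than the diet label. Genes of the W chromosome, which female birds carry, took 1015 to 1117 CPM (counts scaled to equal library totals) in the 3 libraries labelled rooster FCON and 0 to 2.07 in rooster FE, although VTG1, VTG2 and VTG3, the yolk protein genes of laying hens, reached at most 0.15 FPKM in any liver library. Nuclear rRNA took 3.02 to 8.75% of counts in rooster FCON and 32.8 to 60.5% in rooster FE. Mitochondrial genes took 0.677 to 0.932% in rooster FCON and 6.3 to 8.28% in rooster FE. Both offspring pools numbered 2 carried W counts as well (963 CPM in FCON and 1299 in FE, against 2.59 to 9.34 in the other pools). The 3 rooster FCON libraries were also unusually alike: counts of 35.7% of genes with at least 100 counts differed among them by no more than counting noise, against 5.9 to 17.5% in the other liver groups. No pair of libraries was identical, and each was kept as a replicate, as labelled. Repeat libraries of 1 RNA would also differ in counts, so this check cannot tell whether the 3 are separate birds. Within rooster FCON the counts of 11 of 26 such P450 genes stayed inside counting noise, and the small spread there enters every test of that group.

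Levels between genes are compared in FPKM, which corrects for transcript length and library size. Library size here includes rRNA, so every FPKM of rooster FE, with 32.8 to 60.5% nuclear rRNA, is pressed down. Of the 42 genes, 13 did not reach 1 FPKM in any library. They were CYP1C1, the 5 CYP2AB genes, CYP2AC7, the carotenoid ketolase gene CYP2J19, the aromatase gene CYP19A1, the vitamin D-degrading CYP24A1, the retinoic acid hydroxylases CYP26A1 and CYP26C1, and CYP27C1. CYP2AB5 and CYP19A1 were listed at 0 in all 18 libraries. At least 1 FPKM in every library of the group was found for 26 genes in rooster FCON, 18 in rooster FE, 22 in offspring FCON and 24 in offspring FE, but for 3 in sperm FCON and 2 in sperm FE. Hepatocyte markers, 18 in number, summed to at least 17360 FPKM in every liver library and to at most 535.5 in sperm, with RBP4 alone listed at 0 in both offspring groups.

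**Figure D1:**
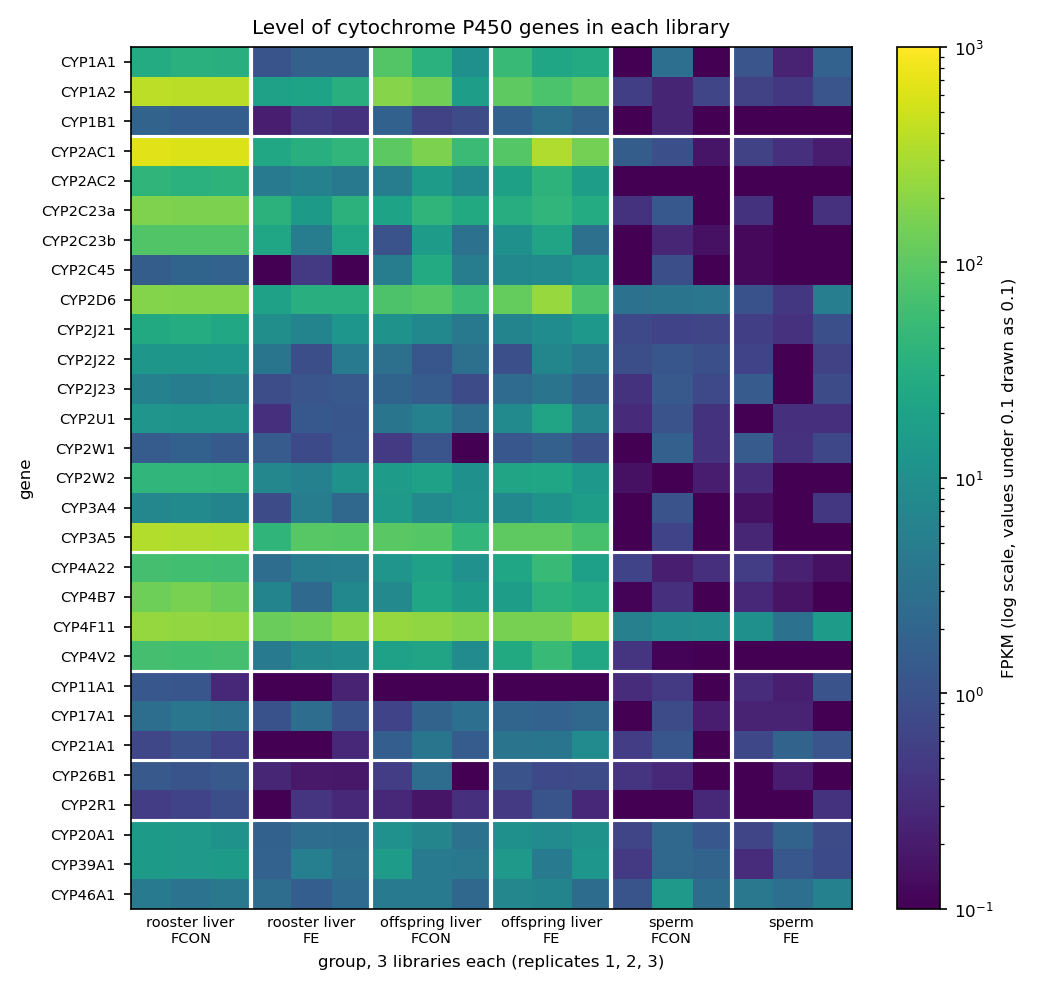
FPKM of the 29 P450 genes that reached 1 FPKM in at least 1 library (rows, grouped by role) in the 18 libraries (columns, 3 per group). Colour is FPKM on a log scale and values under 0.1 are drawn as 0.1. Low values are dark. Most liver genes are darkest in rooster FE among the liver groups, and CYP4F11 and CYP46A1 stand out in sperm. FPKM counts rRNA, which is high in rooster FE and presses all values of that group down.

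A few genes made up most of the liver's P450 RNA. In rooster FCON the highest was CYP2AC1, at 650.5, 622 and 606 FPKM, followed by CYP1A2 at 388 ± 9.6 (mean ± SD, n = 3), CYP3A5 at 333 ± 9.04 and CYP4F11 at 226 ± 9.24. CYP3A5 belongs to the subfamily that clears the broadest range of drugs and steroids in mammals, and CYP4F enzymes hydroxylate fatty acids and eicosanoids at their far end in mammals. In rooster FE the highest was CYP4F11 (123, 143 and 196 FPKM), then CYP3A5 (41.2, 91.8 and 88.4) and CYP2AC1 (24.4, 32.1 and 42.5). CYP4F11 was also first in offspring FCON (229.8, 213 and 183), where CYP1A2 and CYP2AC1 followed with replicate values that overlapped each other. In offspring FE, CYP2AC1 (89.5, 328 and 147), CYP4F11 (151, 153 and 235) and CYP2D6 (113, 239 and 71.3) did not differ beyond their spread. The 3 leading genes of each group held 54.2% of summed P450 FPKM in rooster FCON, 61.5% in rooster FE, 53.7% in offspring FCON and 50.3% in offspring FE, as means of the libraries.

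The make-up of the liver pool differed between the rooster groups, apart from its size. As a share of summed P450 FPKM within each library, family CYP1 took 16.8, 17 and 17.1% in rooster FCON and 6.13, 5.81 and 6.53% in rooster FE. Family CYP4 took 19.6, 20.2 and 19.4% in FCON and 40.2, 39.5 and 41.6% in FE. The groups did not overlap in either share, and families CYP2 and CYP3 together went from 61.7% ± 0.426 to 50.9% ± 0.819. CYP4F11 alone held 9.23, 9.02 and 9.02% of the pool in rooster FCON and 36.1, 35.8 and 37.4% in rooster FE, and CYP2AC1 held 25.5, 25 and 25.1% in FCON and 7.2, 8.02 and 8.12% in FE. With 3 libraries against 3, an exact permutation test cannot go below p = 0.1, so the shares are given as values without a test. In offspring the CYP1 share was 29.4, 18.6 and 5.68% in FCON and 18.5, 7.76 and 15% in FE, and the CYP4 share was 28.9, 28.6 and 44.6% in FCON and 26.2, 22.7 and 34.8% in FE, with the diet groups overlapping in both.

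**Figure D2:**
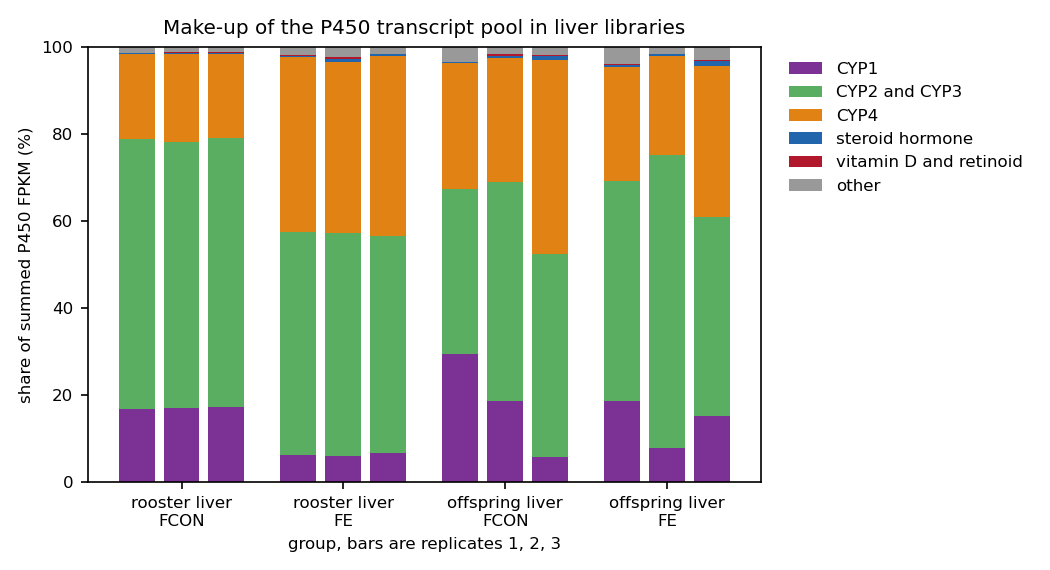
Share of summed P450 FPKM (percent, vertical axis) taken by each role group in each of the 12 liver libraries (bars; colours are role groups). The CYP4 share is 39.5 to 41.6% in the 3 rooster FE libraries and 19.4 to 20.2% in the 3 rooster FCON libraries, and the offspring libraries differ widely within a group.

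Close relatives were not expressed alike. CYP1A1 and CYP1A2, described in the table as the chicken enzymes CYP1A4 and CYP1A5, lie side by side on chromosome 10 (2894101 to 2902531). The FPKM of CYP1A2 was 13.7, 11.3 and 11.9 times that of CYP1A1 in rooster FCON and 17.9, 12.4 and 18.8 times in rooster FE. In the offspring it was 2.23, 4 and 1.64 times in FCON and 1.98, 3.19 and 3.72 times in FE, so that every day-old library lay below every adult library. The ratio of CYP3A5 to CYP3A4 showed the same split by age, at 19.2 to 50.7 in the 6 rooster libraries and 3.84 to 13.6 in the 6 offspring pools. The pair CYP2C23a and CYP2C23b, the phenobarbital-inducible genes also known as CYP2H1 and CYP2H2, lie on chromosome 6 (18406321 to 18425791). Their ratio was 2.06, 1.98 and 2.02 in rooster FCON, 1.57, 3.05 and 1.62 in rooster FE, and between 2 and 20.1 in the offspring. The ages overlapped in this ratio. They also overlapped in the other ratios computed, those of CYP2AC1 to CYP2AC2, CYP4B7 to CYP4A22 and CYP2J21 to CYP2J22. Coordinates are those of the deposited table, whose genome build is not given in the sources used here. How reads that match several of these near copies were shared out is not given either, so the split between neighbours is uncertain. This holds above all for pairs whose listed positions overlap. CYP2J21 and CYP2J22 overlap by 7236 bp on the same strand, and CYP2W1 and CYP2W2 by 2105 bp on opposite strands. CYP2AB4 and CYP2AB5 overlap by 10738 bp on the same strand, so the 0 listed for CYP2AB5 is uncertain too.

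In the libraries labelled rooster liver most of the P450 genes tested were lower in FE than in FCON. The comparison asks what the father's own excess of folic acid went with in the liver. Of the 26 P450 genes that were tested (at least 1 FPKM in at least 3 of the 6 libraries), 17 fell and 1 rose at an adjusted p below 0.05 in edgeR's quasi-likelihood test, where 21.1% of the 10291 genes tested fell and 20.4% rose. The share that fell was thus far above the background, and the share that rose far below it. CYP1B1, CYP26B1 and CYP2C45 passed the filter only through FCON and had to be lower. The median over the tested P450 genes was -1.41 on the log2 scale and -0.03 over all genes. CPM below are scaled by TMM over all liver libraries, or over all sperm libraries, whereas each fit was scaled on its own libraries. Fold changes are FE minus FCON in the diet comparisons and day-old minus adult in the age comparisons.

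**Figure D3:**
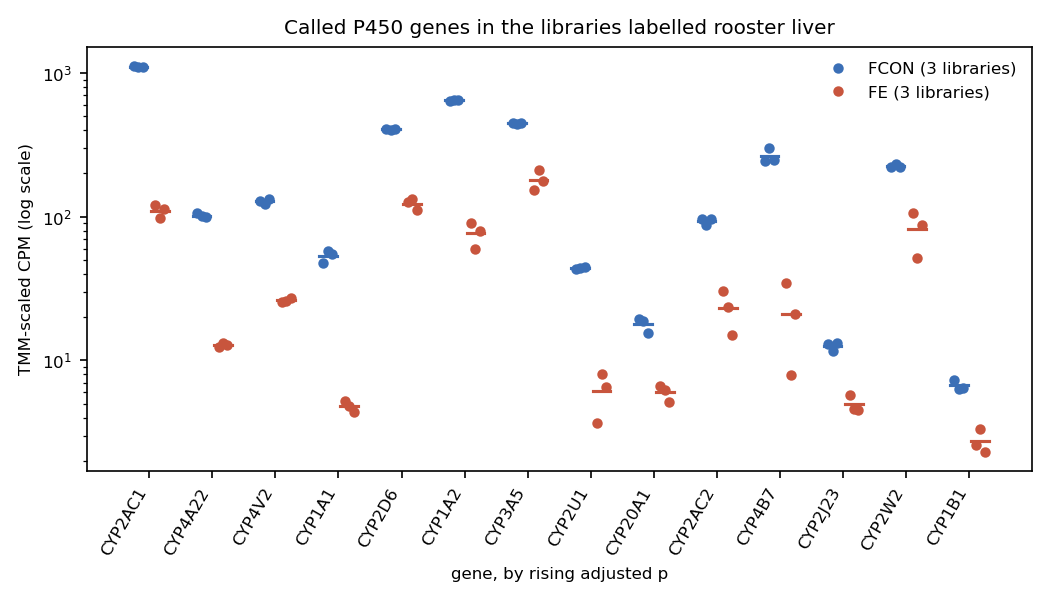
TMM-scaled CPM (log axis) of the 14 P450 genes named for the rooster liver comparison, with 1 point per library of FCON and FE and a line at each group's mean. In each of the 14 genes all 3 FCON points lie above all 3 FE points. The genes were picked for their small p in this comparison, so the separation is no further evidence. CYP1B1 passed the FPKM filter only through FCON. The share of all genes without overlap was not counted.

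All 3 tested genes of family CYP1 fell. CYP1A2 was at 642, 648 and 649.9 CPM in FCON and at 90.8, 59.1 and 79.7 in FE (log2 fold change -3.05, SE 0.16, adjusted p = 3.96e-05). CYP1A1, its neighbour and the other planar-aromatic oxidase, was at 47.4, 58.2 and 55.4 in FCON and 5.2, 4.85 and 4.35 in FE (log2 fold change -3.46, SE 0.15, adjusted p = 1.9e-05). The groups were far apart in both genes. CYP1B1, which acts on oestrogens and aromatic pollutants in mammals, was low in either group (7.34, 6.3 and 6.47 in FCON and 2.6, 3.34 and 2.31 in FE; log2 fold change -1.25, SE 0.26, adjusted p = 0.00821).

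Of the 14 tested genes of families CYP2 and CYP3, 8 fell and 0 rose. CYP2AC1 was at 1114, 1110 and 1103 CPM in FCON and 121, 97.2 and 112 in FE (log2 fold change -3.30, SE 0.10, adjusted p = 8.28e-06), and its neighbour on chromosome 3, CYP2AC2, at 96.4, 87.8 and 97 in FCON and 30.5, 23.6 and 14.9 in FE (log2 fold change -2.00, SE 0.25, adjusted p = 0.00103). Both were lower in every FE library than in any FCON library. CYP2D6, the counterpart of the mammalian enzyme that clears many amine drugs, was at 409, 402 and 409 in FCON and 126, 133 and 111 in FE (log2 fold change -1.70, SE 0.09, adjusted p = 3.39e-05). CYP2U1, a fatty acid hydroxylase in mammals, was at 43.3, 44.1 and 44.8 in FCON and 3.66, 8.06 and 6.52 in FE (log2 fold change -2.81, SE 0.27, adjusted p = 0.000353). In these genes too every FE library lay below every FCON library. The genes named for this comparison were picked for small p in the same libraries, so such separation is no further evidence. The share of all genes without overlap was not counted.

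Smaller differences were found for CYP3A5, at 446, 444 and 452 in FCON and 154, 211 and 177 in FE (log2 fold change -1.28, SE 0.12, adjusted p = 0.000299), and for CYP2W2, at 222, 231 and 223 in FCON and 106, 52 and 87.8 in FE (log2 fold change -1.43, SE 0.24, adjusted p = 0.004). CYP2J23, of the subfamily that makes fatty acid epoxides in mammals, was at 13, 11.7 and 13.2 in FCON and 5.77, 4.6 and 4.55 in FE (log2 fold change -1.32, SE 0.19, adjusted p = 0.00206). The FE libraries again lay below all FCON libraries. The phenobarbital-inducible CYP2C23a fell as well (log2 fold change -1.41, SE 0.44, adjusted p = 0.0397), with 385, 388 and 391 in FCON and the scattered values 241, 61.2 and 128 in FE. Its neighbour CYP2C23b, at 117, 15.2 and 60.2 in FE, scattered in the same order of libraries and did not pass (adjusted p = 0.173). CYP2J21, CYP2J22, CYP2C45, CYP2W1 and CYP3A4 did not pass either.

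Family CYP4 divided. CYP4A22, CYP4B7 and CYP4V2 fell, whereas CYP4F11 was the single P450 gene that rose in the test as reported. CYP4A22 was at 106, 100.5 and 99 CPM in FCON and 12.3, 13.3 and 12.8 in FE (log2 fold change -2.96, SE 0.10, adjusted p = 8.28e-06), and CYP4B7, beside it on chromosome 8, at 243, 301 and 248 in FCON and 34.3, 7.87 and 21.1 in FE (log2 fold change -3.63, SE 0.50, adjusted p = 0.00158). CYP4V2, a fatty acid hydroxylase whose human counterpart is mutated in a crystalline eye disease, was at 128, 123 and 133 in FCON and 25.7, 25.9 and 27.3 in FE (log2 fold change -2.25, SE 0.09, adjusted p = 1.4e-05). The 3 genes were lower in every FE library than in any FCON library. CYP4F11 was at 306, 303 and 299.6 in FCON and 459, 328 and 392 in FE (log2 fold change 0.40, SE 0.12, adjusted p = 0.0395). That rise depends on the scaling and on single libraries. In FPKM, CYP4F11 was lower in FE (236, 224 and 218 against 123, 143 and 196), and limma on FPKM lost the call. FPKM counts rRNA, however, which was far higher in FE. The call held without rRNA and mitochondrial genes and with scaling on hepatocyte markers, with or without HPX. Leaving out any FCON library or FE replicate 3 ended the call. So did omitting the FPKM filter, 1 fit of more libraries and the replicate block.

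Among the remaining roles, CYP20A1, a P450 without a known substrate, fell from 19.4, 18.8 and 15.6 to 6.64, 6.17 and 5.16 CPM (log2 fold change -1.56, SE 0.19, adjusted p = 0.00101). CYP39A1, an oxysterol hydroxylase in mammals, fell by a similar amount (log2 fold change -1.23, SE 0.27, adjusted p = 0.0114), and so did the retinoic acid hydroxylase CYP26B1 (log2 fold change -1.41, SE 0.45, adjusted p = 0.0439), which passed the filter only through FCON. CYP46A1, which hydroxylates cholesterol in the mammalian brain, did not pass, at 11.6, 9.21 and 11.1 in FCON and 20.4, 7.24 and 10.1 in FE. Without any 1 FCON library CYP2C23a no longer passed, and CYP1B1 and CYP26B1 could no longer be tested. CYP2C23a and CYP26B1 also lost the call without FE replicate 3.

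Hepatocyte genes moved with the P450 genes. Of 17 tested hepatocyte markers 13 fell and 1 rose (median log2 -1.22), and their summed level was 61110 to 65250 FPKM in FCON and 23210 to 33660 in FE. None of the 18 listed was at 0 in all libraries of either group. RBP4 was close to that, at 0.018, 0 and 0 CPM in FCON and 0, 0.252 and 0 in FE. Of the macrophage markers 11 of 12 rose (summed 372.3 to 396.3 and 345.5 to 664.7 FPKM), and so did 6 of 6 tested T cell markers (145.1 to 155.8 and 256.6 to 397.1 FPKM). Again none was at 0 in all libraries of a group. In bulk liver fewer hepatocytes and less RNA per hepatocyte cannot be told apart. Set against the hepatocyte markers of the same library, summed P450 counts came to 3.93, 4.04 and 3.93% in FCON and to 1.95, 2.05 and 2.02% in FE. The size of that gap depends on which markers are counted. HPX, the haem-binding plasma protein hemopexin, was the marker that rose, from 8023, 7918 and 7943 CPM in FCON to 38910, 24010 and 29200 in FE. It held 6.73 to 6.81% of the marker counts in FCON and 41.6 to 42.7% in FE. Without HPX the P450 counts came to 4.21, 4.34 and 4.22% of the markers in FCON and to 3.4, 3.52 and 3.48% in FE, still without overlap. The albumin gene ALB, another large part of the marker sum, went from 54640 ± 581 CPM in FCON to 12040 ± 3547 in FE. The markers summed to 117400 ± 872 CPM in FCON and 72910 ± 16970 in FE, and the P450 share without ALB was not computed. With libraries scaled on all hepatocyte markers 11 P450 genes fell and 3 rose (CYP4F11, CYP2W1 and CYP46A1), and with scaling on the markers without HPX 8 fell and 5 rose. The 8 were CYP1A1, CYP1A2, CYP2AC1, CYP2AC2, CYP2U1, CYP4A22, CYP4B7 and CYP4V2, and the median of the P450 genes was then -0.10. Of the 10291 genes tested, 4975 passed with all markers and 7746 without HPX, in either direction, with medians of 0.68 and 1.37. Both scalings were chosen after seeing the data. Diet, the W counts, the rRNA and mitochondrial shares and the total counts follow the same split of libraries. They cannot be told apart in this comparison. All 3 FCON libraries carry W counts, so no value can be given without them.

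In day-old offspring no P450 gene differed detectably between the fathers' diets. Of 26 tested, 0 passed edgeR's quasi-likelihood test, as did 0% of the 9700 genes tested. DESeq2 and limma called 0 of the 26 as well, and 1 P450 gene had an unadjusted p below 0.05. Among all genes 679 did, and DESeq2 called 38. The P450 gene was CYP2U1, at 16.3, 31.1 and 15.1 CPM in FCON and 34.4, 70.2 and 25.7 in FE (log2 fold change 1.07, SE 0.45, adjusted p = 0.701), with overlapping groups. CYP4F11 was at 373, 428 and 362 in FCON and 228, 179 and 355 in FE (log2 fold change -0.60, SE 0.32, adjusted p = 0.733). Its groups did not overlap, but the difference did not pass the test. CYP2AC2 was at 14.5, 57 and 29.6 in FCON and 50.4, 80.5 and 46 in FE (log2 fold change 0.82, SE 0.48, adjusted p = 0.738).

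The offspring pools differed widely within a group. The median coefficient of variation of P450 genes of at least 5 FPKM was 48.1% in offspring FCON and 42.7% in offspring FE, where all genes of that level had 29.5% and 27%. In roosters it was 3.93% in FCON (all genes 6.04%) and 32.6% in FE (all genes 32.3%). CYP2C23b was at 2.26, 43.3 and 8.22 CPM in offspring FCON and 20.05, 33.4 and 6.09 in offspring FE. CYP1A2 scattered more in offspring FCON (379.5, 358 and 41) than in offspring FE (189, 106 and 193). CYP1A1 was at 172, 90.6 and 25.3 in FCON and 96.4, 33.5 and 52.6 in FE. In FCON the pool numbered 3 was thus far below the others in CYP1A1 and CYP1A2. CYP2C45 stood apart in the FCON pool numbered 2, at 8.39, 61.3 and 10.7 against 11.9, 10.3 and 18.9 in FE. The pools numbered 2, those with W counts, were the highest of their diet group in both diets for 9 of 26 tested P450 genes (34.6%), compared with 8.25% of all genes and 4 of 17 hepatocyte markers. The 9 were CYP2AC1, CYP2AC2, CYP2C23a, CYP2C23b, CYP2D6, CYP2U1, CYP2W1, CYP4A22 and CYP4V2. The part of W counts, or of the birds behind them, in these levels was not tested. Without both pools 0 P450 genes and 1 of all genes passed.

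The diet difference of rooster and offspring liver was compared directly, as the difference between the 2 effects (offspring minus rooster) in 1 fit of 12 libraries. It was positive for 13 of 27 tested P450 genes, where 10.2% of 11002 genes were, and negative for 0, where 8.44% of all genes were. For these 13 genes the FE minus FCON difference was below 0 in roosters, and it was above 0 in offspring for 10 of them without passing there. They are all among the 14 named in the rooster comparison, whose libraries are used again here. In family CYP4 the difference was 3.57 (SE 0.44, adjusted p = 0.00053) for CYP4A22, which stood at 23.7, 47.2 and 25.2 CPM in offspring FCON and 40.5, 69.6 and 33.5 in offspring FE. It was 4.00 (SE 0.72, adjusted p = 0.00364) for CYP4B7 (17.9, 65.2 and 43.7 in FCON and 37.9, 60.4 and 63.3 in FE) and 2.84 (SE 0.42, adjusted p = 0.00135) for CYP4V2 (46.1, 64.1 and 24.9 in FCON and 58.8, 86 and 53.6 in FE). Offspring groups overlapped in each of these.

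**Figure D4:**
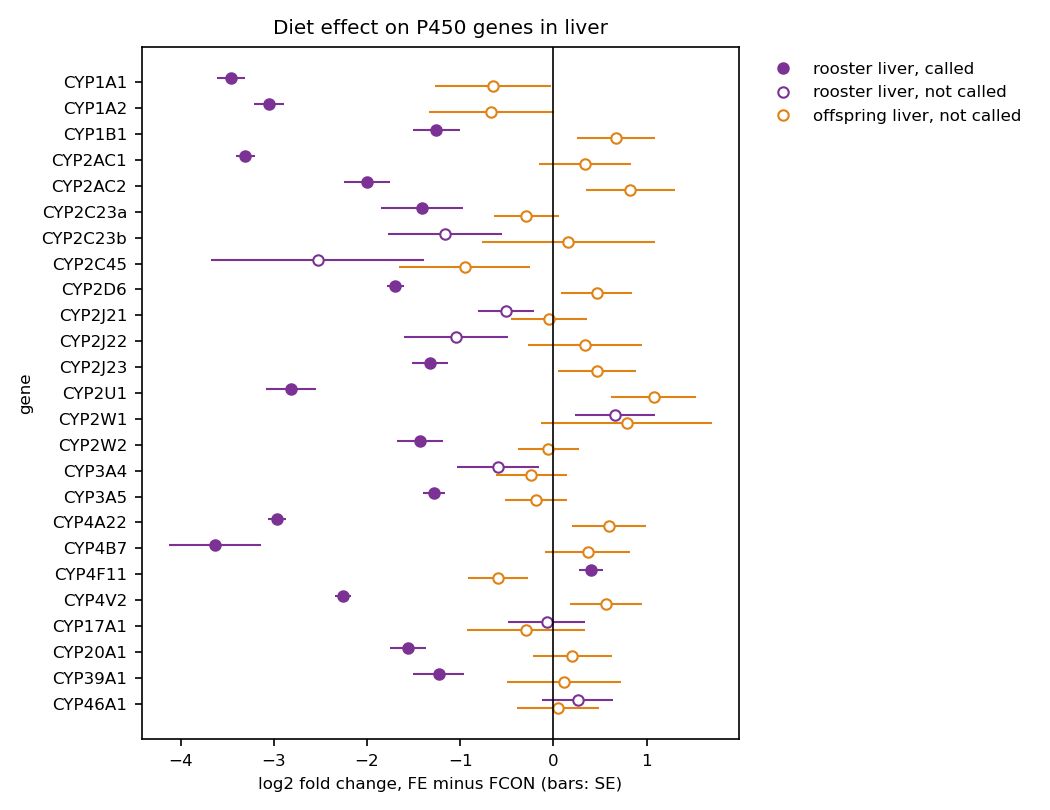
Log2 fold change, FE minus FCON, with its SE, of the 25 P450 genes tested in both rooster liver and offspring liver. Filled points passed an adjusted p below 0.05. Rooster points lie mostly left of 0 and offspring points lie around 0, with CYP4F11 right of 0 in roosters and left of 0 in offspring.

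In families CYP1 to CYP3 the difference was 3.91 (SE 0.59, adjusted p = 0.00137) for CYP2U1, 3.66 (SE 0.58, adjusted p = 0.00183) for CYP2AC1 and 2.84 (SE 0.60, adjusted p = 0.00804) for CYP2AC2. CYP2AC1 had 209, 432 and 140.1 CPM in offspring FCON and 178, 507 and 294 in offspring FE. The difference was 2.17 (SE 0.42, adjusted p = 0.00535) for CYP2D6, which had 216, 302 and 184 in FCON and 294, 479 and 185 in FE. CYP1A1, CYP1B1, CYP2J23 and CYP2W2 passed with differences of 2.83, 1.94, 1.80 and 1.40. Over 23 alternatives CYP1A1 lost the call in 6, CYP1B1 in 4 and CYP2W2 in 11, and CYP2W2 turned negative without passing in 1 more. CYP3A5 was at the edge of the threshold (difference 1.11, SE 0.36, adjusted p = 0.0497; 157, 179.6 and 88.7 in FCON and 152, 118 and 102 in FE). The offspring groups overlapped for CYP2AC1, CYP2D6 and CYP3A5. CYP20A1 passed too (difference 1.77, SE 0.49, adjusted p = 0.0264), with 17.1, 13.6 and 6.4 CPM in offspring FCON and 15.7, 9.89 and 16.8 in offspring FE. CYP3A5 lost the call in 13 of the 23 alternatives and turned negative without passing in 1 more, and CYP20A1 lost it in 6. CYP1A2 did not pass (difference 2.40, SE 0.81, adjusted p = 0.0563), nor did CYP4F11, whose difference was negative (difference -0.99, SE 0.34, adjusted p = 0.0594). Hepatocyte markers moved the same way, with 10 of 17 positive and 1 negative. With libraries scaled on those markers 6 P450 genes passed in place of 13, all positive. On the markers without HPX 4 were positive (CYP2AC1, CYP2U1, CYP4A22 and CYP4B7) and 2 negative (CYP46A1 and CYP4F11). Among all genes 2054 passed as reported, 1301 with the marker scaling and 4439 with the scaling without HPX, in either direction. Leaving out both pools numbered 2 gave 12 P450 genes and 1773 of all genes.

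The livers of day-old chicks and adult roosters were compared within each diet. In FCON, 12 of 27 tested P450 genes were lower in day-old liver and 3 were higher, against a background of 13.8% lower and 15.6% higher among 10339 genes. The rooster libraries here are those with W counts. Nuclear rRNA took 3.02 to 8.75% of counts in the roosters and 16.4 to 29.1% in the pools. Mitochondrial genes took 0.677 to 0.932% and 5.18 to 8.74%, and total counts were 36.1 to 43.1 M and 21.6 to 25.5 M. Age, the W counts, these shares, the depth and the pooling of chicks cannot be told apart. Of 17 hepatocyte markers 7 were lower and 1 higher (summed level 17360 to 48420 FPKM in the day-old FCON pools). Without any 1 of the rooster FCON libraries 6 genes passed, all lower, where 783 to 810 of all genes passed. With scaling on hepatocyte markers, with or without HPX, 6 passed, all higher. Among all 10339 genes 5226 passed with that scaling and 5288 without HPX, in either direction, and the median of all genes moved to 1.11 and 1.14. ALB, 1 of these markers, was at 54640 ± 581 CPM in the roosters and 7162 ± 2164 in the pools.

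The 6 genes lower in day-old FCON liver whichever rooster library was left out were CYP2AC1, CYP2C23a, CYP2J22, CYP3A5, CYP4A22 and CYP4B7. CYP4B7 had the largest of their differences, at 17.9, 65.2 and 43.7 CPM against 243, 301 and 248 in the roosters (log2 fold change -2.63, SE 0.45, adjusted p = 0.00811). CYP2AC1 differed by -2.08 (SE 0.41, adjusted p = 0.0122) and CYP4A22 by -1.66 (SE 0.29, adjusted p = 0.00878). CYP2C23a had 59.8, 147 and 93.3 CPM in the pools, below all roosters (log2 fold change -1.95, SE 0.33, adjusted p = 0.00751). CYP3A5 was lower by a similar amount (log2 fold change -1.65, SE 0.28, adjusted p = 0.00746). CYP2J22, whose reads may be shared with CYP2J21, had 8.98, 4.52 and 10.9 in the pools and 31.8, 32.3 and 32.5 in the roosters (log2 fold change -1.97, SE 0.33, adjusted p = 0.00762). CYP2J21 differed in the same direction (log2 fold change -1.38, SE 0.30, adjusted p = 0.0177).

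The 3 genes higher in day-old FCON liver were CYP2C45, CYP21A1 and CYP3A4. CYP3A4 had 41.1, 27.6 and 35.4 CPM in the pools and 15.9, 18.2 and 15.2 in the roosters (log2 fold change 1.09, SE 0.21, adjusted p = 0.0116), opposite in direction to CYP3A5 of the same subfamily. CYP2C45 had 8.39, 61.3 and 10.7 in the pools and 2.09, 2.86 and 2.65 in the roosters (log2 fold change 3.41, SE 0.81, adjusted p = 0.0224). CYP21A1, the steroid 21-hydroxylase gene, had 2.23, 6.3 and 2.57 in the pools and 0.795, 1.18 and 0.785 in the roosters (log2 fold change 2.01, SE 0.54, adjusted p = 0.0323), but it passed the filter only through the pools and had to be higher. In all 3 the pools lay above the roosters.

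In FE the direction was the other way: 12 of 26 tested P450 genes were higher in day-old liver and 0 lower, against a background of 14.7% higher and 12.8% lower among 9847 genes. These libraries are not those of the FCON age comparison, and only the pool numbered 2 of them carries W counts. Nuclear rRNA took 32.8 to 60.5% of counts in the roosters and 4.7 to 20.4% in the pools. Age, the rRNA share and the pooling of chicks cannot be told apart here either. The test of the difference between the age effects of the diets is the same contrast as the difference of diet effects above. CYP1A1 was at 96.4, 33.5 and 52.6 CPM in the pools and 5.2, 4.85 and 4.35 in the roosters (log2 fold change 3.65, SE 0.42, adjusted p = 0.000923). CYP2U1 was at 34.4, 70.2 and 25.7 in the pools and 3.66, 8.06 and 6.52 in the roosters (log2 fold change 2.82, SE 0.46, adjusted p = 0.00371). CYP4A22 (log2 fold change 1.89, SE 0.32, adjusted p = 0.00398) and CYP4V2 (log2 fold change 1.31, SE 0.25, adjusted p = 0.00699) were also higher, with no overlap between ages. CYP1A1 and CYP2U1 passed in all 16 alternatives, and CYP4A22 and CYP4V2 in all but scaling on the hepatocyte markers without HPX. CYP1B1, CYP21A1 and CYP2C45 passed the filter only through the pools and had to be higher.

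**Figure D5:**
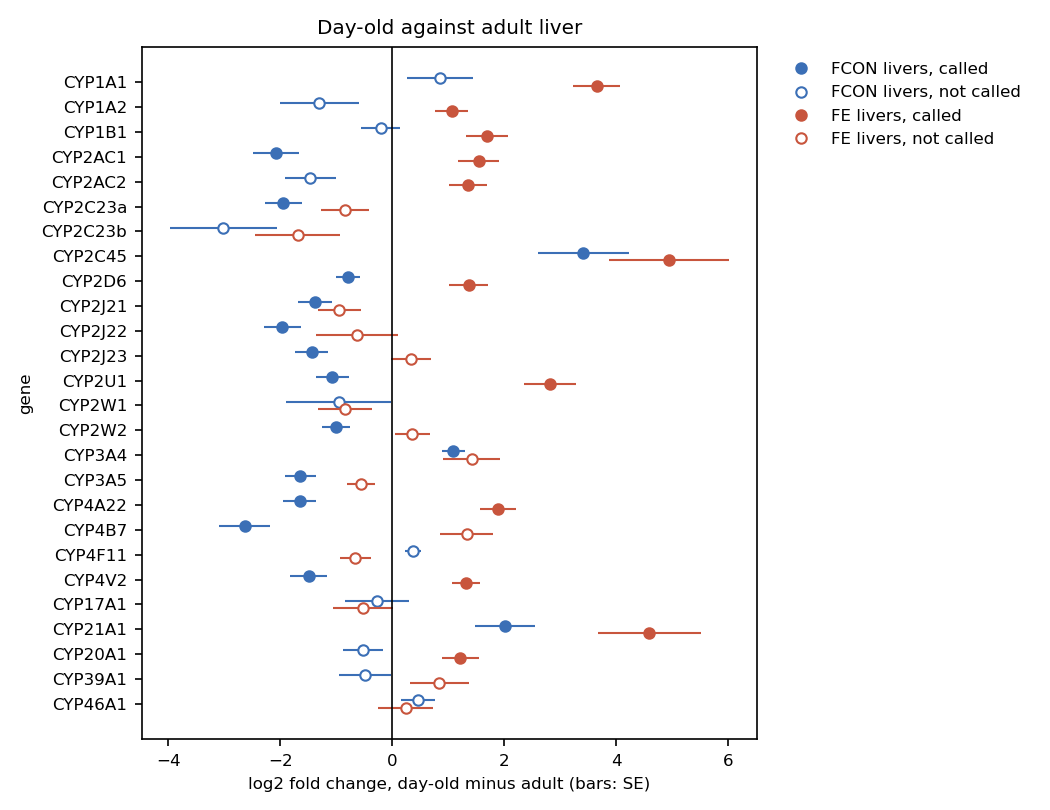
Log2 fold change, day-old minus adult liver, with its SE, of the 26 P450 genes tested in both diets. Filled points passed an adjusted p below 0.05. Of the genes that passed, FCON points lie mostly left of 0 and FE points right of 0, while CYP2C45 and CYP21A1 lie right of 0 in both. CYP21A1 in both diets, and CYP2C45 and CYP1B1 in FE, passed the FPKM filter only through the pools and had to lie there.

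The remaining genes higher in day-old FE liver, with larger p, were CYP2AC1 (log2 fold change 1.54, SE 0.36, adjusted p = 0.0155), CYP2AC2 (1.34), CYP2D6 (1.36), CYP20A1 (1.21) and CYP1A2 (1.06). Without rooster FE replicate 3, or without the offspring FE pool numbered 1, 7 P450 genes passed, where 1485 and 1838 of all genes passed. Other cell types differed as well: 6 of 17 hepatocyte markers were higher and 2 lower, 12 of 12 macrophage markers were lower and 5 of 6 T cell markers were lower in day-old liver. The part of cell composition was not tested beyond the scaling on hepatocyte markers, with which 12 genes passed, all higher. On the markers without HPX 5 passed, 4 of them higher (CYP1A1, CYP2U1, CYP2C45 and CYP21A1) and CYP2C23b lower. Among the 9847 genes tested 1370 passed with the marker scaling and 1350 with the scaling without HPX, in either direction. Across the 4 liver groups, 11 of 27 P450 genes had both offspring means between the 2 rooster means, among them CYP1A2, CYP2AC1, CYP2D6, CYP4A22 and CYP4V2. Both offspring means were below both rooster means for 7, including CYP3A5 and both CYP2C23 genes, and above both for 5, namely CYP1A1, CYP21A1, CYP2C45, CYP3A4 and CYP46A1.

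Sperm held little P450 RNA, with summed levels of 14.9 to 49.7 FPKM per library. CYP4F11 was at 5.57, 8.36 and 9.01 FPKM in FCON and 10.2, 3.06 and 15.7 in FE, and CYP46A1 at 1.08, 14.1 and 2.59 in FCON and 4.02, 2.91 and 5.81 in FE. CYP2D6 was at 3.27, 3.43 and 3.77 in FCON and 1.01, 0.45 and 5.12 in FE. Of 7 tested P450 genes 0 passed edgeR's quasi-likelihood test, as did 0% of 8811 genes, 0 had an unadjusted p below 0.05, and limma called 0 of them and DESeq2 0 of the 6 it gave an adjusted p. Among all genes 296 had an unadjusted p below 0.05. The smallest adjusted p was 0.902, for CYP2D6 (-1.03 log2, SE 0.62). Spermatid and sperm markers summed to 22.9 to 540.1 FPKM in these libraries and hepatocyte markers to 122.7 to 535.5. The hepatocyte sum was mostly transferrin (TF), at 709, 508 and 699 CPM in FCON, where the markers summed to 1371, 626 and 808, and at 906, 242 and 612 in FE, where they summed to 1156, 451 and 748.

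The genes that serve the P450 enzymes were counted from lists of their partners. Of 8 electron donors tested in rooster liver 6 fell in FE and 1 rose (median log2 -0.88, against -0.03 over all genes). The reductase POR went from 109.5 ± 44.7 to 33.6 ± 19 CPM (log2 fold change -1.68, SE 0.47, adjusted p = 0.0271), cytochrome b5 CYB5A from 613 ± 8.38 to 292 ± 87.5 (log2 fold change -1.04, SE 0.20, adjusted p = 0.0072), and PGRMC1, a haem-binding partner of P450s, from 194 ± 5.3 to 77.6 ± 12.4 (log2 fold change -1.29, SE 0.12, adjusted p = 0.00036). The mitochondrial ferredoxin FDX1 did not pass (adjusted p = 0.0904). In haem turnover 3 of 10 tested genes fell and 2 rose (median log2 -0.13). ALAS1, the rate-limiting enzyme of haem synthesis in liver, fell from 159 ± 3.59 to 19.4 ± 5.61 CPM (log2 fold change -3.01, SE 0.21, adjusted p = 0.00011). HMOX1, which breaks haem down and is high in macrophages of spleen and liver, rose from 42.9 ± 2.1 to 437 ± 34.9 (log2 fold change 3.38, SE 0.10, adjusted p = 7.23e-06), and HMOX2 rose too (log2 fold change 1.23, SE 0.18, adjusted p = 0.00232). Of the macrophage markers 11 of 12 rose as well, and a link between them and HMOX1 was not tested.

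Of 17 tested receptors and transcription factors 2 rose and 2 fell in FE roosters (median log2 0.07). NR1I3 rose from 74.8 ± 0.32 to 184 ± 7.04 CPM (log2 fold change 1.32, SE 0.07, adjusted p = 4.83e-05) while CYP2C23a fell. AHR did not pass (log2 fold change 0.07, SE 0.16, adjusted p = 0.746), and its repressor AHRR was listed at 0 in all liver groups. AHR2, another AHR gene of the list, was at 12.4, 12.7 and 17.5 CPM in FCON and 8.95, 3.21 and 4.08 in FE. HNF4A was at 71.05, 71.2 and 70.9 in FCON and 47.3, 18.9 and 27.1 in FE. AHR2 and HNF4A were chosen after their values were seen and are given without a test. In offspring liver 0 of the tested genes of the 3 lists passed, with ALAS1 at 18.2, 19.7 and 69.7 CPM in FCON and 25.5, 17.1 and 33.9 in FE, and HMOX1 at 79.1 ± 33.6 and 44.2 ± 0.992. Every pool was thus below every FCON rooster in ALAS1 (159.9, 161 and 155). The FCON pool numbered 3 and the FE pools numbered 1 and 3 were above every FE rooster (25, 19.5 and 13.8), the FE pool numbered 1 only narrowly. The diet effects of rooster and offspring liver differed for HMOX1 (-4.19 log2, adjusted p = 0.000156), PGRMC1 (2.01, adjusted p = 0.00169) and ALAS1 (2.54, adjusted p = 0.0198). Between day-old and adult FE liver, 4 of 8 electron donors were higher and 0 lower, including POR (log2 fold change 2.44, SE 0.49, adjusted p = 0.00837), and HMOX1 was lower (log2 fold change -3.33, SE 0.21, adjusted p = 0.000236). In FCON the ages differed in 1 electron donor in each direction.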

How the data were processed

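The deposited table gives whole-number counts and FPKM per gene, both made by the authors. Per the submitters' processing notes cutadapt, HISAT2 and StringTie were used. Versions, settings, genome build, strand marking and the treatment of multi-mapping reads were not given in the sources used here. FPKM is relative to all fragments of a library, rRNA included, so it is pressed down where rRNA is high. Chromosome names come from the GRCg7b gene table, which held all 42 genes.

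The members and lists were chosen with earlier results of these data known. The counts were tested with edgeR 4.0.16 (quasi-likelihood, TMM scaling, R 4.3.3) in 6 comparisons, each fitted on its own libraries without covariates. Tested genes had an FPKM of 1 or more in 3 or more of a fit's libraries, and p-values were adjusted by Benjamini-Hochberg over all of them. SE is the size of the log2 fold change divided by the square root of F. Members are named with all values if they passed and reached 5 CPM in a group mean, at most 14 per comparison by p. Where 0 passed, the 3 smallest p are named. Other members were chosen after their values were seen, as were the yolk protein genes.

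The alternatives were DESeq2 1.42.0, its size factors in edgeR, limma 3.58.1 on log2(FPKM + 1) and log2(FPKM + 0.1), no FPKM filter, 1 fit of more libraries, removal of rRNA and mitochondrial genes, a replicate block, each library left out, both pools numbered 2 left out, and scaling on hepatocyte markers with and without HPX (both added after seeing the data). Same-numbered sperm libraries correlated after removal of group means (0.198, 0.233 and 0.298), so the numbers may pair them, and with the block 0 genes passed. Precision is limited by 3 libraries per group.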

Additional observations from a re-analysis of the deposited data

Results flagged for a closer look

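The diet effects of offspring liver and rooster liver differed for 13 P450 genes, by a test of the difference itself (edgeR's quasi-likelihood test on 12 libraries, offspring effect minus rooster effect, log2). In family CYP4 the differences were 3.57 for CYP4A22, 4.00 for CYP4B7 and 2.84 for CYP4V2. In family CYP1 they were 2.83 for CYP1A1 and 1.94 for CYP1B1. In families CYP2 and CYP3 they were 3.66 for CYP2AC1, 2.84 for CYP2AC2, 2.17 for CYP2D6, 1.80 for CYP2J23, 3.91 for CYP2U1, 1.40 for CYP2W2 and 1.11 for CYP3A5. The difference for CYP20A1 was 1.77. All 13 rest on the rooster liver libraries, whose FCON group carries W counts. Over 23 alternatives the call was lost in 13 for CYP3A5, 11 for CYP2W2, 6 for CYP1A1 and CYP20A1, 4 for CYP1B1, 2 for CYP2AC2, CYP2D6 and CYP2J23, 1 for CYP4V2 and 0 for the other genes. CYP3A5 and CYP2W2 each turned negative without passing in 1 more.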

How the results depend on the processing

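The count of P450 genes whose diet effects differed, 13 as reported, was 21 with limma on log2(FPKM + 1), 23 on log2(FPKM + 0.1) and 6 with scaling on hepatocyte markers, with or without HPX. Of all 11002 genes 2054 passed as reported, 5776 and 5522 with limma, and 1301 and 4439 with the scalings. In FCON livers by age, 15 genes became 6 with either scaling, and CYP2W2 (0.051, and 0.071 without HPX), CYP2D6 (0.285 and 0.306) and CYP2U1 (0.003 and 0.023 log2) turned from lower to higher without passing. In FE livers by age, 12 became 5 with scaling without HPX. That scaling also turned CYP3A5 (0.147), CYP2J23 (0.051) and CYP1B1 (0.161) in roosters, and CYP2W2 (-0.131) and CYP3A5 (-0.45) in the difference of effects, none passing. Scaling on hepatocyte markers moved the median of all genes by itself, to 0.68 in roosters, -0.79 in the difference of effects and 1.11 in FCON by age (without HPX to 1.37, -1.51 and 1.14), and limma on log2(FPKM + 1) moved it to -0.76, 1.06 and -0.41, so these directions are relative to that shift. The cause of the changed calls was not tested beyond this. Leaving out each library in turn gave 14 to 20 called P450 genes in roosters and 9 to 13 in the difference of effects. It gave 6 to 17 in FCON by age, 7 to 12 in FE by age, and 0 in offspring liver and in sperm. Of all genes, these fits called 2560 to 5161 in roosters and 1244 to 2192 in the difference of effects. They called 783 to 4087 in FCON by age, 1485 to 2444 in FE by age, 0 to 2 in offspring liver and 0 to 182 in sperm. With replicate number as a block 16 genes passed in roosters, 11 in the difference of effects (CYP2W2 and CYP3A5 were lost), 15 in FCON by age, 11 in FE by age and 0 in offspring liver and in sperm. Outside sperm, correlations of same-numbered libraries after removal of group means ran from -0.183 to 0.06. They showed no pairing, but cannot settle whether the numbers pair birds or pools. For single named genes, 345 of the fits with a library left out kept the call or its absence and 72 lost a call. In the rooster comparison CYP2AC1, CYP4A22, CYP4V2, CYP1A1, CYP1A2, CYP2U1, CYP2AC2 and CYP4B7 passed in all 16 alternatives, CYP2D6, CYP20A1 and CYP2W2 lost the call with scaling without HPX, and CYP3A5, CYP2J23 and CYP1B1 lost it with either marker scaling.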

Other observations

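CYP27C1, which desaturates retinol in human skin and in fish, stayed under 1 FPKM in every library and was therefore not tested with the others. Without the FPKM filter edgeR's quasi-likelihood test called it higher in rooster FE (log2 fold change 3.60, SE 0.72, adjusted p = 0.0108). Its levels were 0.591, 0.372 and 0.0935 CPM in rooster FCON and 4.81, 5.79 and 3.12 in rooster FE, with no overlap, and 1.19, 2.48 and 1.35 in offspring FCON and 0.939, 0.979 and 0.858 in offspring FE. It was chosen after its values were seen. CYP26B1, which clears retinoic acid, was at 1.82, 11.5 and 0.374 CPM in offspring FCON and 3.42, 1.88 and 2.7 in offspring FE, so the FCON pool numbered 2 alone exceeded every other liver library. CYP17A1, a gene of steroid synthesis in adrenal and gonad, was near 4.33 ± 0.654 CPM in rooster FCON and 4.03 ± 2.04 in rooster FE (mean ± SD, n = 3) and passed edgeR's quasi-likelihood test with TMM scaling in none of the comparisons that tested it. In roosters limma on FPKM called it lower, and scaling on hepatocyte markers without HPX called it higher.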
